A study of Mus musculus with 17 samples.

Results

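CHD7 binding was compared between clonal mouse cells carrying an inducible leukaemia fusion and clonal cells carrying the matching control construct, with neither induced. The comparison uses 4 of the 17 samples of the series: CHD7 in CBFB-MYH11 -Dox cells (2 libraries) and CHD7 in Control -Dox cells (2 libraries). Peaks of the 4 lists that overlapped by at least 1 bp were merged, which gave 50058 sites. A site called in both CBFB-MYH11 -Dox libraries and in neither Control -Dox library is called CM-only here, and 2535 sites (5.06%) were of this kind. A site called in both Control -Dox libraries and in neither CBFB-MYH11 -Dox library is called control-only, and 941 sites (1.88%) were of this kind. Another 7440 sites were called in all 4 libraries.

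Per the labels' protocols, the cells are 416B, a mouse myeloid progenitor line. All groups carry a stably integrated plasmid with a tetracycline silencer, a tetracycline transactivator and a blasticidin resistance gene under an Ef1alpha promoter. CBFB-MYH11 cells also carry the type A Cbfb-Myh11 cDNA, joined through an F2A element to the red fluorescent protein mCherry, under a tetracycline responsive element. Control cells (labelled Control-ATG) carry a version of that plasmid without the fusion. Mother cells were mCherry-negative single cells sorted into wells, and selected clones were expanded, so each construct is represented by its own clonal cells. Libraries labelled -Dox received no doxycycline and those labelled +Dox received 1 ug/ml for 24 hours. CHD7 in CBFB-MYH11 +Dox and Control +Dox cells (2 libraries each) and RUNX1 in all 4 conditions (2 libraries each) were used as readouts that did not choose the sites. The IgG sample of the Control line was not analysed here.

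CHD7 is an ATP-dependent chromatin remodeller of the chromodomain helicase family. It slides nucleosomes at enhancers and promoters, and its loss in people causes CHARGE syndrome, a disorder of tissues formed by the neural crest. RUNX1 is the DNA-binding subunit of core binding factor and is required for blood stem cells to form; CBFB is its partner, which binds no DNA itself. An inversion of human chromosome 16 found in acute myeloid leukaemia fuses CBFB to the smooth muscle myosin heavy chain MYH11, and the fusion protein blocks RUNX1 function.

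Promoters under 4 sites are printed to show sequence that the sites cover: the highest-ranked promoter of each kind, Fam111a and Gm41173, and one more of each, Ivl and Haus4, chosen after their values were seen because RUNX1 was called there in one construct alone. The windows are those RefSeq gives around a gene's start in build GRCm38.p6, the assembly that mm10 denotes, and run 5′ to 3′ along the gene. Capitals mark the RUNX letters TGTGGT or the AP-1 letters TGACTCA, searched on both strands, so that RUNX letters on the other strand read ACCACA.
Fam111a promoter, CM-only, chr19:12573260-12573559, plus strand: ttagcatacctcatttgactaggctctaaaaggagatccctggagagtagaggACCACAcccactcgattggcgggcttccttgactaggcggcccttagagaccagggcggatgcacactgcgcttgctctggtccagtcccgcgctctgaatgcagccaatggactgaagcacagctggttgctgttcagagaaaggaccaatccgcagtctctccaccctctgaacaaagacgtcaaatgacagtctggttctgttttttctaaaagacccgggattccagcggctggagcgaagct
Ivl promoter, CM-only, chr3:92573686-92573985, minus strand: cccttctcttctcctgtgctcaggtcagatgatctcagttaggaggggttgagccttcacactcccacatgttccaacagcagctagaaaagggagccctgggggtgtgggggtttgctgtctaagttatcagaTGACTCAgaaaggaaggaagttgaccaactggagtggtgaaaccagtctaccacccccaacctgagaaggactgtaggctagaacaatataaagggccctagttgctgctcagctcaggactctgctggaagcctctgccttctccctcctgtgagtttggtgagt
Gm41173 promoter, control-only, chr14:62332006-62332305, minus strand: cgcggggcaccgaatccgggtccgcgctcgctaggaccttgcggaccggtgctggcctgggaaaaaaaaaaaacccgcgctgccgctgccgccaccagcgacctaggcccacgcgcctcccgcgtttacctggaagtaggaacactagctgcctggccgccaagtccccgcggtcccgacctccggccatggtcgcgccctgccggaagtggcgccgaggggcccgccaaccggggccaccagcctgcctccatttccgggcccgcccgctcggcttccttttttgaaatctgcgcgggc
Haus4 promoter, control-only, chr14:54554312-54554611, minus strand: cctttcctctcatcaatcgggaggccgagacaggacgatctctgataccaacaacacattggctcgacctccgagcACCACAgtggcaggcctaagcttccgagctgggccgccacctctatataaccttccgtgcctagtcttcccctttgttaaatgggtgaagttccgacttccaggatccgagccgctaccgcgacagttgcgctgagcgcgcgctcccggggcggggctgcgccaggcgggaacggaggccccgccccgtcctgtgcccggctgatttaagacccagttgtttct
Fam111a, a protease gene of DNA replication, holds one RUNX match, and its promoter lies within the CM-only site chr19:12572970-12575388. Ivl, which encodes involucrin of the skin's cornified layer, holds one AP-1 match. The Gm41173 window holds neither and lies within a control-only site at an end of Rnaseh2b, a subunit gene of ribonuclease H2. Haus4, a gene of the augmin complex of the mitotic spindle, holds one RUNX match. RUNX1 was called at the Ivl site in 3 of 4 CBFB-MYH11 and 0 of 4 Control libraries, and at the Rnaseh2b and Haus4 sites in 0 of 4 CBFB-MYH11 and 4 of 4 Control libraries. At the Fam111a site it was called in 4 CBFB-MYH11 and 3 Control libraries.

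The lists differed in length. CBFB-MYH11 -Dox libraries held 17554 and 37698 CHD7 peaks, and Control -Dox libraries 17857 and 21486. They covered 7.98 and 16.7 Mb, against 7.58 and 9.52 Mb. The geometric mean was 1.31-fold higher in CBFB-MYH11 -Dox, but the groups overlapped (two-sided exact permutation test with 6 choices: p = 1, and 1 after adjustment over 5 tests). The smallest p that 2 libraries against 2 allow is 0.333. Of the peaks of CBFB-MYH11 -Dox replicates 1 and 2, 77.9% and 35.9% overlapped a peak of the partner library, and of those of Control -Dox replicates 1 and 2, 60.1% and 49.4%. The largest single class of sites was 17949 called in CBFB-MYH11 -Dox replicate 2 alone. Read depth is unknown. The labels do not tell whether the 2 replicates of a group were separate cultures, and the p-values below therefore cover the spread among libraries, be it biological or technical. One library goes against its label: in Control -Dox RUNX1 replicate 1 the names of the peaks hold the text +Dox. It was kept where its label puts it, and the RUNX1 result is also given without it. Cells were assayed in bulk, so a site occupied in more cells and a site occupied more in each cell cannot be told apart.

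With each list cut to its 17554 highest-scored peaks, the numbers came closer to each other. There were then 1561 CM-only sites (4.43% of 35225) and 1222 control-only sites (3.47%). Of the 2535 CM-only sites 1346 were also CM-only at equal list length, and of the 941 control-only sites 713 were. Some of the equal-length sites had a weaker peak on the other side below the cut: 214 of the 1561 CM-only and 509 of the 1222 control-only. The cut in CBFB-MYH11 -Dox replicate 2 fell at a score of 3.81, where 5550 peaks were tied. The score is the authors' −log10 p of each peak. CM-only sites had a median score of 2.998 and 3.81 in the 2 libraries that called them, and control-only sites 3.33 and 3.60. Sites called in all 4 libraries scored 4.64 and 6.55 in CBFB-MYH11 -Dox, against 4.33 and 5.31 in Control -Dox. The median percentile rank within the list was 33.3 and 51.8 for CM-only sites in the CBFB-MYH11 -Dox libraries, and 45.1 and 41.9 for control-only sites in the Control -Dox libraries, against 71.4 to 85.9 for sites called in all 4. A score of at least 5 in CBFB-MYH11 -Dox replicates 1 and 2 was reached by 180 and 777 CM-only sites, and in Control -Dox replicates 1 and 2 by 70 and 163 control-only sites. A Control -Dox peak lay within 1 kb of 19.8% of CM-only sites, and a CBFB-MYH11 -Dox peak within 1 kb of 25.8% of control-only sites.

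The 2 kinds of site were unevenly spread over the genome, and 2 chromosomes stood apart. Chromosome 19 held 526 of the 2535 CM-only sites (20.7%) and 3 of the 941 control-only sites. Chromosome 14 held 27 CM-only sites and 191 control-only sites (20.3% of all control-only sites). On chromosome 19, 15.7% of all CHD7 sites were CM-only, and on chromosome 14, 12.9% were control-only. On the other autosomes and X, CM-only sites made up 3.43% to 5.32% of a chromosome's sites and control-only sites 0.899% to 2.58%. At equal list length chromosome 19 held 320 CM-only and 5 control-only sites, and chromosome 14 held 20 and 197.

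**Figure D1:**
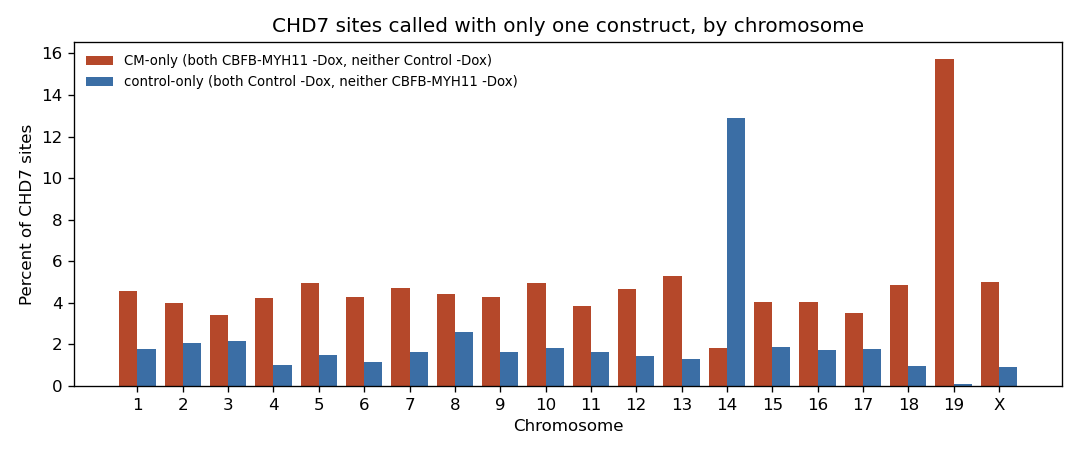
Percent of a chromosome's CHD7 sites (y axis) that were CM-only (left bar) or control-only (right bar), for chromosomes 1 to 19 and X. Chromosome 19 reached 15.7% CM-only and chromosome 14 reached 12.9% control-only, while no other chromosome passed 5.32% and 2.58%.

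Within these chromosomes the sites lay in long segments. Beyond 50 Mb of chromosome 14 there were 855 sites, of which 0 were CM-only and 181 control-only, and 36 were called in all 4 libraries. Up to 50 Mb there were 627 sites, of which 27 (4.31%) were CM-only and 10 (1.59%) control-only, close to the rest of the genome. Beyond 5 Mb of chromosome 19, 525 of 3270 sites were CM-only and 3 control-only. The bounds of 50 and 5 Mb were chosen after the sites had been seen, at window edges.

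The constructs had different shares of their CHD7 peaks on these segments in every library. On distal chromosome 14, beyond 50 Mb, CBFB-MYH11 -Dox libraries had 0.285% and 0.416% of their peaks, against 3.01% and 2.75% in Control -Dox libraries. On distal chromosome 19, beyond 5 Mb, they had 8.19% and 7.79%, against 2.24% and 2.72% in Control -Dox libraries. On proximal chromosome 14 the shares lay close together, at 1.09% and 1.20% in CBFB-MYH11 -Dox, against 1.29% and 1.28% in Control -Dox. The groups did not overlap on any of the 3 segments. On proximal chromosome 14 the shares of RUNX1 peaks of the constructs overlapped, at 1.19% to 1.36% in CBFB-MYH11 and 1.24% to 1.32% in Control libraries.

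The same segments differed in libraries that did not choose the sites. With doxycycline, CHD7 libraries had 0.281% and 0.376% of their peaks on distal chromosome 14 in CBFB-MYH11 cells, against 2.90% and 2.79% in Control cells. On distal chromosome 19 the shares were 8.01% and 7.69% in CBFB-MYH11 +Dox, against 2.16% and 2.65% in Control +Dox. RUNX1 libraries differed in the same directions. On distal chromosome 14 the 4 CBFB-MYH11 RUNX1 libraries had 0.821% and 0.971% (-Dox) and 0.749% and 0.742% (+Dox), against 2.29% and 2.28% (-Dox) and 2.26% and 2.30% (+Dox) in Control. On distal chromosome 19 they had 4.46% and 4.36% (-Dox) and 4.89% and 4.64% (+Dox), against 2.67% and 3.003% (-Dox) and 2.62% and 2.88% (+Dox) in Control. No CBFB-MYH11 library overlapped a Control library on either segment.

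Over whole chromosomes, RUNX1 peaks on chromosome 14 were 2.10% ± 0.092 of the total in CBFB-MYH11 and 3.56% ± 0.023 in Control (SD, n = 4 each; exact permutation test over 70 choices, p = 0.0286, adjusted p = 0.190 over 20 chromosomes). On chromosome 19 they were 4.86% ± 0.29 in CBFB-MYH11 and 2.997% ± 0.16 in Control (SD, n = 4 each; exact permutation test, p = 0.0286, adjusted p = 0.190). Chromosome 16 gave the same p with 3.69% ± 0.089 in CBFB-MYH11 and 3.56% ± 0.033 in Control (SD, n = 4 each). The p of 0.0286 is the smallest that 70 choices allow, and none of the 20 passed the adjustment. Each group of 4 pooled -Dox and +Dox libraries, which the 70 choices exchanged across treatments.

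**Figure D2:**
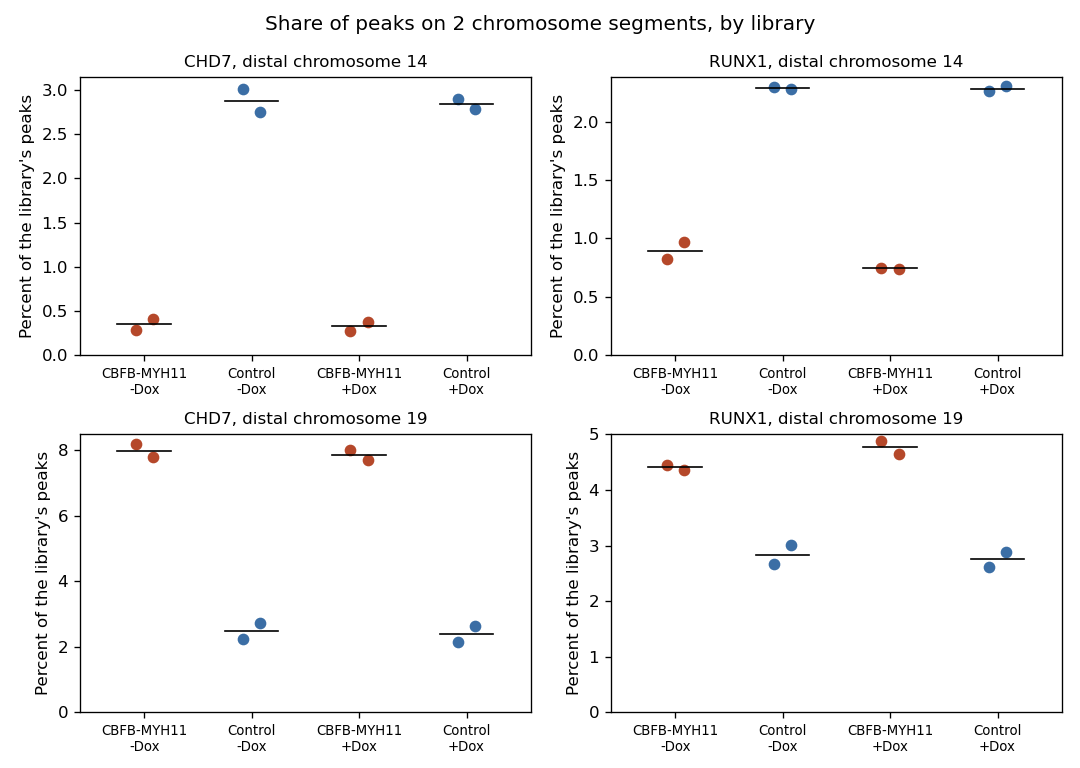
Percent of each library's peaks (y axis) on chromosome 14 beyond 50 Mb (top) and chromosome 19 beyond 5 Mb (bottom), for CHD7 (left) and RUNX1 (right). Points are libraries and lines the mean of 2; CBFB-MYH11 libraries sit at 0.281% to 0.971% on distal chromosome 14 and Control libraries at 2.26% to 3.01%, with the opposite order on distal chromosome 19.

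Windows of 5 Mb gave the extent of the segments, with each window's peaks taken as a share of the library's peaks outside chromosomes 14 and 19. With CHD7, 36 of 495 windows (7.27%) were higher in all 4 CBFB-MYH11 than in all 4 Control libraries, and 32 (6.46%) were lower. Over the 473 windows with enough peaks for both antibodies, 18 (3.81%) had a higher share of peaks in all 4 CBFB-MYH11 than in all 4 Control libraries with both CHD7 and RUNX1, and 12 of the 18 were on chromosome 19. Another 13 windows (2.75%) were lower in this way with both antibodies, and 11 of the 13 were on chromosome 14. On chromosome 19 the log2 ratio of the CHD7 share was 0.32 in the first window and 0.71 in the next, and lay between 1.53 and 2.21 in the 11 after those. RUNX1 log2 ratios in these 11 windows were 0.64 to 1.10. On chromosome 14 the CHD7 log2 ratio was between -0.36 and 0.45 in the windows from 5 to 50 Mb, -1.54 in the window from 50 Mb and -2.88 or lower in each of the 10 windows beyond it that were compared with both antibodies. RUNX1 log2 ratios in those 10 windows ran from -2.70 to -0.90. The 6 higher windows off chromosome 19 were on chromosomes 1, 12, 13, 15, 16 and 18. The one on chromosome 12, from 25 Mb, had CHD7 and RUNX1 log2 ratios of 1.15 and 0.28, with 7 to 19 CHD7 peaks in CBFB-MYH11 and 2 to 5 in Control libraries, and the other 5 had 0.18 to 0.46 and 0.16 to 0.33. The other two lower windows were on chromosome 9 from 5 Mb, with CHD7 and RUNX1 log2 ratios of -0.82 and -0.99, and on chromosome 5 from 60 Mb, with -0.51 and -0.64. The CHD7 values include the 4 libraries that chose the sites, and the RUNX1 values include none of them.

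**Figure D3:**
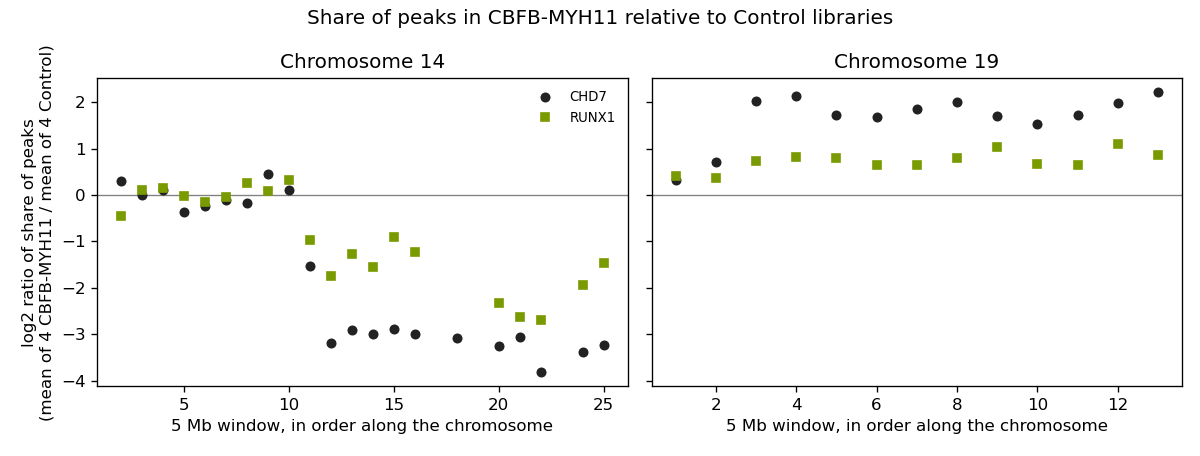
The log2 ratio of the share of peaks per 5 Mb window (y axis), mean of 4 CBFB-MYH11 over mean of 4 Control libraries, counted against peaks outside chromosomes 14 and 19, for CHD7 (circles) and RUNX1 (squares), with windows in order along chromosomes 14 and 19 (x axis). CHD7 lies at -2.88 or below over most of distal chromosome 14 and at 1.53 to 2.21 over 11 windows of chromosome 19, and RUNX1 lies on the same side of 0 in those windows.

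Sites that were called everywhere differed in rank on the same segments. Among 4852 sites called in all 8 CHD7 libraries, the 157 on distal chromosome 19 had a median percentile rank of score among these sites (100 is the highest in a library) of 73.7 and 69.2 in CBFB-MYH11 -Dox, against 31.3 and 49.6 in Control -Dox. The 26 on distal chromosome 14 had 70.3 and 81.8 in CBFB-MYH11 -Dox, against 89.9 and 89.6 in Control -Dox. The 4612 on other chromosomes had 48.8 in both CBFB-MYH11 -Dox libraries, against 50.3 and 49.9 in Control -Dox. At 188 distal chromosome 19 sites called in all 8 RUNX1 libraries, the median rank was 58.8 to 65.1 in the 4 CBFB-MYH11 and 39.7 to 46.0 in the 4 Control libraries. At 35 on distal chromosome 14 it was 41.6 to 55.8 in CBFB-MYH11 and 74.8 to 77.9 in Control. The amount of DNA on these segments was not measured. The 2 constructs are in different clonal cells, so clone and construct cannot be told apart in any of these values.

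Away from chromosomes 14 and 19, 1982 of 45235 sites (4.38%) were CM-only and 747 (1.65%) control-only, and at equal list length 1221 and 1020 of 32125 (3.8% and 3.18%). Some of the results below are given with and without these chromosomes.

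CHD7 libraries made with doxycycline, which did not choose the sites, called a larger share of the sites of their own construct than the libraries of the other construct did. CBFB-MYH11 +Dox libraries called 48.7% and 62.0% of the CM-only sites and 26.2% and 37.8% of the control-only sites. Control +Dox libraries called 19.8% and 31.1% of the CM-only sites and 44.8% and 49.8% of the control-only sites. Each of the 4 called 82.4% to 91.7% of the sites called in all 4 -Dox libraries. For each library a log2 odds ratio compared calling at CM-only sites with calling at control-only sites, and it was 1.41 and 1.42 in CBFB-MYH11 +Dox and -1.72 and -1.14 in Control +Dox. The means differed by 2.84, with p = 0.333, the lowest value 6 choices allow, in an exact permutation test (adjusted p = 0.556). Outside chromosomes 14 and 19 the values were 0.87 and 0.86 in CBFB-MYH11 +Dox, against -1.02 and -0.75 in Control +Dox, a difference of 1.75. The log2 odds ratios of the groups did not overlap in either form. The shares behind them did overlap in part outside these chromosomes: CM-only sites were called at 44.9% and 59.2% in CBFB-MYH11 +Dox, against 23.1% and 33.2% in Control +Dox, but control-only sites at 30.8% and 44.4%, against 37.9% and 45.6%. These libraries come from cells of the same constructs as those that chose the sites, and no second clone of either construct is named in the labels.

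RUNX1, a readout with another antibody, gave a difference in log2 odds ratio between constructs in the same direction. In the 4 CBFB-MYH11 RUNX1 libraries the ratio itself ran from -0.28 to 0.33, against -1.59 to -1.40 in the 4 Control libraries. CBFB-MYH11 -Dox RUNX1 libraries had peaks at 22.1% and 28.6% of CM-only sites and 20.5% and 24.1% of control-only sites. Control -Dox RUNX1 libraries had peaks at 14.0% and 14.8% of CM-only sites and 32.9% and 32.7% of control-only sites. At the sites called in all 4 CHD7 libraries RUNX1 was called at 54.4% and 60.6% in CBFB-MYH11 -Dox, against 56.6% and 56.8% in Control -Dox. The log2 odds ratio was 0.13 and 0.33 in CBFB-MYH11 -Dox, against -1.59 and -1.49 in Control -Dox, a difference of 1.77, again with the lowest possible p = 0.333 of the exact permutation test (adjusted p = 0.556).

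Over all 8 RUNX1 libraries the log2 odds ratio was 0.051 ± 0.25 in CBFB-MYH11 and -1.51 ± 0.086 in Control (SD, n = 4 each), a difference of 1.56. No CBFB-MYH11 library overlapped a Control library in this ratio. The share of CM-only sites called did overlap, at 10.3% to 28.6% in CBFB-MYH11 and 14.0% to 14.8% in Control, while that of control-only sites did not, at 12.2% to 24.1% in CBFB-MYH11 and 30.4% to 32.9% in Control. The exact permutation test over 70 choices gave p = 0.0286, the smallest possible, and the adjusted p over 5 tests was 0.143, so the difference did not pass after adjustment. Each group of 4 pooled -Dox and +Dox libraries. The SD therefore includes any effect of treatment, and the 70 choices exchanged libraries across treatments. With doxycycline the log2 odds ratios were -0.28 and 0.02 in CBFB-MYH11, against -1.57 and -1.40 in Control. Outside chromosomes 14 and 19 the difference over 8 libraries was 1.19 (exact permutation test, p = 0.0286). Without Control -Dox RUNX1 replicate 1, whose peak names go against its label, the difference was 1.54. RUNX1 lists were called at 1e-09 or 1e-07, and with a score of at least 9 required in every list the difference was 1.56. With doxycycline, RUNX1 was called at 38.6% and 43.4% of the sites shared by all 4 CHD7 libraries in CBFB-MYH11 cells, against 55.4% and 52.9% in Control cells. The difference between constructs was 1.36 with and 1.77 without doxycycline, and these 2 values were not shown to differ (exact permutation test of constructs within each treatment over 36 choices, p = 0.556).

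**Figure D4:**
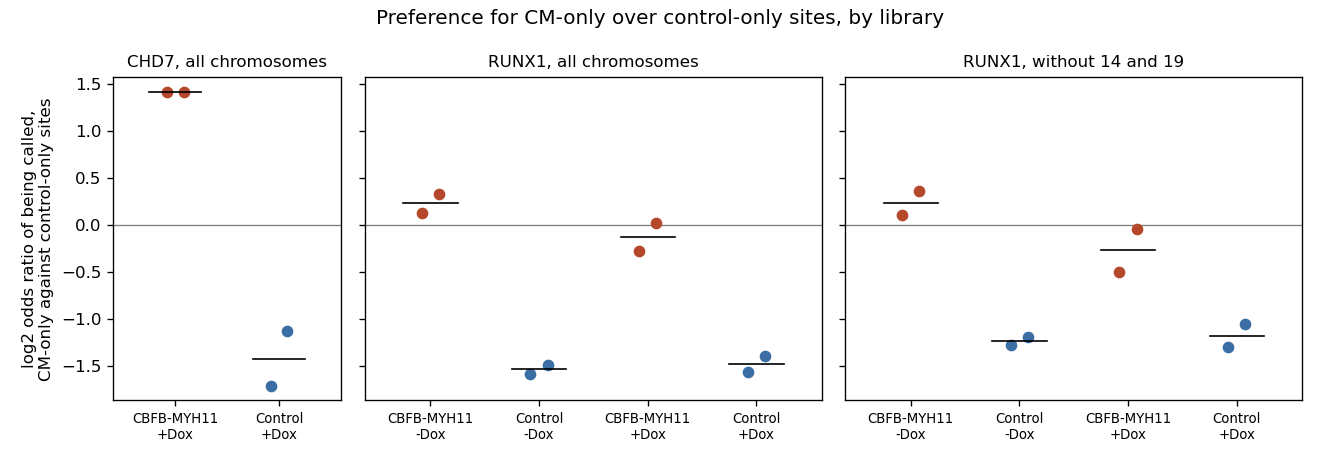
The log2 odds ratio (y axis) of a library calling CM-only rather than control-only sites, for CHD7 +Dox libraries and for RUNX1 libraries with all chromosomes and without chromosomes 14 and 19. Points are libraries, lines the mean of 2; CHD7 lies at 1.41 and 1.42 in CBFB-MYH11 +Dox and at -1.72 and -1.14 in Control +Dox, and no CBFB-MYH11 point overlaps a Control point in any panel.

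A part of the members kept their pattern in the +Dox CHD7 libraries. Of the CM-only sites 502 (19.8%) were called in both CBFB-MYH11 +Dox and neither Control +Dox library, 183 of them on chromosome 19. Among all 50058 sites 5.78% had this pattern in the +Dox libraries. Of the control-only sites 135 (14.3%) held in the same way, 72 of them on chromosome 14, against 2.24% of all sites with both Control +Dox and neither CBFB-MYH11 +Dox library. The opposite pattern, neither +Dox library of the own construct and both of the other, was seen at 39 CM-only sites (1.54%, against 2.24% of all sites) and 51 control-only sites (5.42%, against 5.78% of all sites). None of these opposite cases were on chromosome 14 or 19 for control-only sites, and 1 was, on chromosome 14, for CM-only sites. Another 453 CM-only sites (17.9%) and 161 control-only sites (17.1%) were called in no +Dox CHD7 library. The share of all sites with this pattern is not given here, so these shares cannot be called high or low. Outside chromosomes 14 and 19, 315 CM-only sites (15.9%) held and 38 (1.92%) were opposite, and 63 control-only sites (8.43%) held and 51 (6.83%) were opposite. Over all sites there, 5.14% had the CBFB-MYH11 and 2.09% the Control pattern with doxycycline.

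RUNX1 had a peak in at least one library at 861 CM-only sites (34.0%) and 396 control-only sites (42.1%), against 28.8% of all sites and 71.3% of those in all 4 CHD7 libraries. It was called in all 4 RUNX1 libraries of the own construct and in none of the other at 28 CM-only sites (1.10%) and 43 control-only sites (4.57%). Over all sites, 0.146% had RUNX1 in the 4 CBFB-MYH11 and no Control library, and 0.298% in the 4 Control and no CBFB-MYH11 library. The reverse was seen at 0 sites of either kind. These RUNX1 shares and counts are not given without chromosomes 14 and 19, where the share of RUNX1 peaks differed between constructs. With both antibodies and with or without doxycycline, 18 of the 2535 CM-only sites were called in all 8 CBFB-MYH11 and none of the 8 Control libraries. Likewise 18 of the 941 control-only sites were called in all 8 Control and none of the 8 CBFB-MYH11 libraries. The 4 lists that chose the sites are among these libraries. Only members can therefore show either pattern, and a share over all sites would not be a background for it. Of the first 18, 5 were on chromosome 19, in or near Mpeg1, Prune2, Gda, Pik3ap1 and Pgam1. Mpeg1 encodes the macrophage pore-forming protein perforin-2 and Pik3ap1 an adaptor of phosphoinositide 3-kinase. The other 13 included one in Cbfb, one 59.1 kb from Chd7 itself (chr4:8927512-8928368) and one in Bckdha (chr7:25649737-25650438). Of the 18 control-only sites, 12 were on chromosome 14, at Haus4, Irf9, Rnaseh2b and Cog3 among others. Irf9 encodes the DNA-binding subunit of the interferon-stimulated factor ISGF3, and Cog3 a Golgi tether.

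The 10 highest-ranked CM-only sites were led by the 2 genes joined in the fusion. All 3 Myh11 sites and 4 of the 7 sites at Cbfb were CM-only, and none of these 7 was called in a Control library with either antibody. The highest-ranked, chr8:105178440-105178885 in Cbfb, scored 24.5 and 38.9 in CBFB-MYH11 -Dox and 67.7 and 78.0 in CBFB-MYH11 +Dox CHD7 libraries. RUNX1 peaks there scored 27.3 and 21.8 in CBFB-MYH11 -Dox and 81.9 and 110.2 in CBFB-MYH11 +Dox. The other 3 CM-only sites at Cbfb scored 8.45 to 25.9 without doxycycline, and those in Myh11 (chr16:14200587-14201125, chr16:14201962-14202395 and chr16:14204513-14205303) 6.87 to 11.6. CBFB-MYH11 cells also carry a Cbfb-Myh11 cDNA. Whether these Cbfb and Myh11 sites cover exons, and so sequence of the cDNA, was not checked. Reads from the construct and from the native genes were not told apart here. Without the sites in or within 5 kb of Cbfb and Myh11, the RUNX1 difference in log2 odds ratio was 1.54 and the CHD7 +Dox difference 2.83.

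Of the other 4 CM-only sites of highest rank, 3 lay outside genes. The site 23.8 kb from Ric1, a trafficking gene (chr19:29497847-29498393), scored 27.6 and 27.8 in CBFB-MYH11 -Dox and was called in both CBFB-MYH11 +Dox libraries and no Control library. RUNX1 was called there in 0 of 8 libraries. A site in Pcdh7, a protocadherin gene (chr5:57940370-57941370), scored 7.55 and 14.2 in CBFB-MYH11 -Dox. RUNX1 was called there in 4 of 4 CBFB-MYH11 libraries, at 10.5 to 51.3, and in 0 of 4 Control libraries, and 1 Control +Dox CHD7 library called it. Sites 8.10 kb from Rdm1 (chr11:101644191-101645386) and 13.5 kb from 1700016C15Rik (chr1:177713301-177714623) were called in both CBFB-MYH11 +Dox and 1 Control +Dox library. Among sites called in all 4 CBFB-MYH11 and no Control CHD7 library, 3 more of high rank were on chromosome 19, in Hhex, Gda and Nt5c2. At Hhex, a homeobox gene of early blood and endothelium, RUNX1 was called in all 8 libraries (chr19:37435657-37436022). At Gda, a guanine deaminase gene (chr19:21453794-21454799), it was called in 4 CBFB-MYH11 and 0 Control libraries.

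Control-only sites of high rank were led by one 4.86 kb from Azin2, an antizyme inhibitor gene (chr4:128924984-128925374). It scored 18.4 and 43.4 in Control -Dox and 12.2 and 11.2 in Control +Dox, and no CBFB-MYH11 library and no RUNX1 library called it. On chromosome 14 lay sites at Tpt1, a translationally controlled tumour protein gene (chr14:75845832-75846145, 11.8 and 19.4 in Control -Dox), near Gm4606, near the endothelin receptor gene Ednrb, at Rnaseh2b and in Lrch1. The site 75.3 kb from Ednrb (chr14:103919830-103920631) scored 6.55 and 13.1 in Control -Dox. RUNX1 scored 104.7 to 153.1 there in the 4 Control libraries and was called in 0 of 4 CBFB-MYH11 libraries. Off chromosome 14, the site 55.5 kb from the cation channel gene Trpc6 (chr9:8487847-8488339) scored 6.55 and 10.3 in Control -Dox, with RUNX1 at 131.1 to 164.6 in 4 Control and in 0 of 4 CBFB-MYH11 libraries. A second site, 11.6 kb from Trpc6 (chr9:8692369-8694164), was likewise called in all 8 Control and none of the 8 CBFB-MYH11 libraries. Both lie in the chromosome 9 window named above, where 6 of 35 sites were control-only and 1 was CM-only. At the sites near Scamp1 and in Cers6, a ceramide synthase gene, RUNX1 was called in 4 Control libraries and in the 2 CBFB-MYH11 -Dox but neither CBFB-MYH11 +Dox library. The sites in Vps26c and Cers6 were each called in 1 CBFB-MYH11 +Dox CHD7 library.

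**Figure D5:**
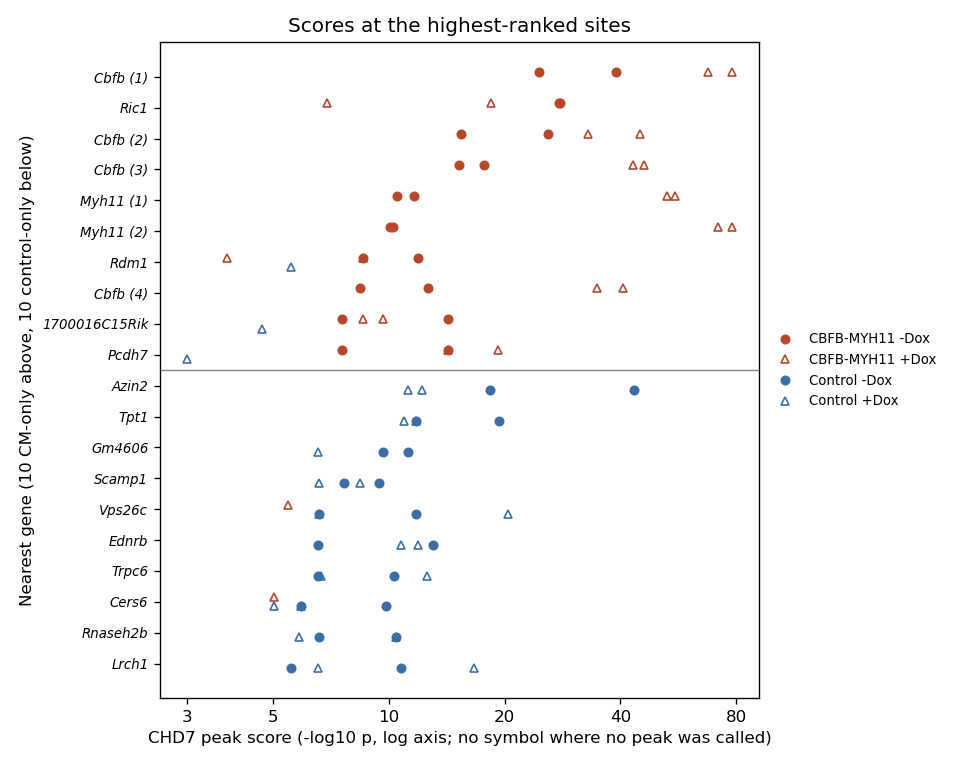
CHD7 peak score (−log10 p, x axis, log scale) at the 10 highest-ranked CM-only and 10 highest-ranked control-only sites, labelled by nearest gene (y axis); filled circles are -Dox and open triangles +Dox libraries. The CM-only sites have symbols of CBFB-MYH11 libraries, plus 1 Control +Dox library each at Rdm1, 1700016C15Rik and Pcdh7; the Cbfb and Myh11 sites score higher with doxycycline, up to 78.0 in Cbfb.

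Members lay away from gene ends more often than sites shared by all 4 libraries. Within 1 kb of either end of a protein-coding gene lay 14.0% of CM-only sites (Wilson 95% interval 12.7% to 15.5%), 21.4% of control-only sites (18.9% to 24.1%) and 32.6% of sites in all 4 libraries (31.5% to 33.6%). Over all 50058 sites it was 18.0%, so CM-only sites lay below and control-only sites above the general share. Sites in all 4 libraries were wider, with a median of 878 bp, against 507 bp for CM-only and 466 bp for control-only sites. Width was not taken into account in these shares. RefSeq promoter windows were overlapped by 5.40% of CM-only, 11.1% of control-only and 24.7% of the sites in all 4. Inside a protein-coding gene lay 59.8%, 55.3% and 63.6%. Outside chromosomes 14 and 19 the gene-end shares were 13.5% of CM-only and 21.7% of control-only sites. These intervals cover counting error only. Over whole lists, 23.4% and 18.1% of CBFB-MYH11 -Dox peaks lay within 1 kb of a gene end, against 23.3% and 25.6% of Control -Dox peaks. The groups overlapped, and the difference of -3.69 percentage points was below the SD of 3.71 between the CBFB-MYH11 -Dox replicates (two-sided exact permutation test, p = 0.667; adjusted p = 0.833). The longer list, CBFB-MYH11 -Dox replicate 2, had the lowest share, and at equal list length the difference was -1.63.

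Letters of known motifs were counted in the promoters under the sites, with no test. Of 163 RefSeq promoters under CM-only sites, 9.82% held the AP-1 letters TGACTCA, against 3.13% of 128 under control-only sites, 3.54% of 2401 under sites in all 4 libraries and 5.20% of all 32851 promoters. The RUNX letters TGTGGT were held by 16.0% of the CM-only, 13.3% of the control-only and 13.7% of the promoters under sites in all 4, against 16.8% of all promoters. The ETS letters ACCGGAAG were held by 2.45% of the CM-only, 4.69% of the control-only and 10.2% of the promoters under sites in all 4, against 2.30% of all promoters. The GATA letters AGATAA were held by 12.9% of the CM-only, 7.81% of the control-only and 8.08% of the promoters under sites in all 4, against 11.2% of all promoters. The C/EBP letters TTGCGCAA were in 0 of 163 and 0 of 128 promoters, against 0.75% under sites in all 4 and 0.183% of all. Median GC content was 57.3% under CM-only and 64.0% under control-only sites, against 59% under sites in all 4 and 52.7% over all promoters. Several windows can belong to a single site or gene, and a match is a string of letters and not a measured binding site.

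Genes were then read through lists of 227 genes by role. A site was counted for a gene up to 5 kb beyond the gene's ends. Longer genes have more room for a site, and gene length was not taken into account in these shares. Of all 21883 protein-coding genes, 6.97% had a CM-only site, 3.17% a control-only site and 21.7% a site called in all 4 libraries. Of the 227 list genes, 25 (11.01%) had a CM-only and 15 (6.61%) a control-only site, and 2 had both. These shares differed by chromosome. On chromosome 19, 28.7% of 705 genes had a CM-only site and 0.993% a control-only site, and 5 of the 7 list genes there had a CM-only site. On chromosome 14 beyond 50 Mb, 0 of 458 genes had a CM-only and 20.3% a control-only site, and 3 of the 6 list genes there had a control-only site. On chromosome 14 up to 50 Mb, 5.36% of 392 genes had a CM-only and 2.04% a control-only site. Elsewhere 6.41% and 2.88% of genes had a CM-only and a control-only site, and 20 and 12 of 212 list genes did.

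Of 24 transcription factor genes of blood stem and progenitor cells, 6 (25%) had a CM-only site, led in rank by Hhex, Etv6, Runx2 and Ldb1. A control-only site was found at 5 (20.8%), which were Fli1, Meis1, Cbfa2t3, Spi1 and Elf1. Over all genes these shares were 6.97% and 3.17%. A site in all 4 libraries was also more frequent, at 12 (50%), against 21.7% of all genes. Hhex and Ldb1, the cofactor that bridges GATA1 and TAL1 complexes, are on chromosome 19 and Elf1 is on chromosome 14. The site in Runx2 (chr17:44718073-44719080), a RUNX1 relative that drives bone formation, scored 3.81 and 5.59 in CBFB-MYH11 -Dox, with RUNX1 in 3 CBFB-MYH11 and 0 Control libraries. The site in Etv6, an ETS repressor gene (chr6:134186154-134186816), scored 3.73 and 12.1 in CBFB-MYH11 -Dox, and RUNX1 was called there in all 8 libraries. The sites in Fli1 and Elf1, both ETS factor genes, had low scores, 2.96 and 2.82 at Fli1 and 2.998 in both Control -Dox libraries at Elf1. The site in Spi1, the gene of the myeloid factor PU.1, scored 2.55 and 5.31 in Control -Dox and was called in 1 CBFB-MYH11 +Dox and 1 Control +Dox library. Both CBFB-MYH11 +Dox and neither Control +Dox CHD7 library called the site in Meis1, the opposite of its kind. No +Dox CHD7 library called those in Fli1, Cbfa2t3 and Elf1, so none of the 5 kept its pattern. Among the CM-only sites of this list, that in Runx2 and the higher-ranked at Hhex kept theirs.

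Of 15 chromatin remodeller genes, 4 (26.7%) had a CM-only site (Chd1, Chd7, Chd9 and Smarca2) and 1 (6.67%) a control-only site (Chd8, on chromosome 14). Over all genes these shares were 6.97% and 3.17%. A site in all 4 libraries was found at 53.3% of the remodeller genes, against 21.7% of all genes. The CM-only site in Chd7 (chr4:8842739-8843168) scored 3.17 and 8.42 in CBFB-MYH11 -Dox. Both CBFB-MYH11 +Dox and neither Control +Dox library called it, with RUNX1 in 3 CBFB-MYH11 and 4 Control libraries. Smarca2, the BRM ATPase gene of the SWI/SNF complex, is on chromosome 19 and had 3 CM-only sites. One of them (chr19:26605096-26605553), at its promoter, had RUNX1 in 4 CBFB-MYH11 and 0 Control libraries. Chd9 had 2 CM-only sites at 2.11 to 7.55. Runx1 itself had 10 sites, 4 of them in all 4 libraries, and none was CM-only or control-only.

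Myeloid differentiation genes had member sites at shares near those of all genes, 8% for CM-only and 4% for control-only sites. Of the 25 genes, 2 had a CM-only site, the integrin gene Itgam (2.87 and 3.62 in CBFB-MYH11 -Dox) and the lysozyme gene Lyz2 (3.81 in both). No CBFB-MYH11 +Dox CHD7 library called either site, and 1 Control +Dox library called that at Lyz2. A control-only site was found at 1 gene, Cebpe on chromosome 14 (4.33 and 7.49 in Control -Dox), a granulocyte factor gene. The Cebpe site was called in 1 CBFB-MYH11 +Dox and 2 Control +Dox CHD7 libraries. Of 20 megakaryocyte and mast cell genes, Ms4a2, Selp and Itgb3 (15%, against 6.97% of all genes) had a CM-only site and Selp also a control-only site. Selp, the platelet P-selectin gene, had 3 CM-only sites, the highest at 5.59 and 10.8 in CBFB-MYH11 -Dox. Ms4a2, the mast cell IgE receptor beta chain gene, is on chromosome 19. Of 20 integrin and adhesion genes Itga6, Cd44, Cd47 and Alcam (20%, against 6.97% of all genes) had a CM-only site. Itga6 (5%, against 3.17% of all genes) also had a control-only site. Of 27 ribosomal protein genes Rpl5, Rpl35 and Rpl37 (11.1%, against 6.97% of all genes) had a CM-only site. Rpl4 (3.70%, against 3.17% of all genes) had a control-only site. The other lists had 0 or 1 gene with a CM-only site: Dntt of 16 lymphoid genes, on chromosome 19, Jak1 of 20 cytokine receptor and JAK-STAT genes, Ccnb1 of 20 cell cycle genes, and none of 12 erythroid, 16 neural crest and 12 liver genes. A control-only site was found at 16.7% of the erythroid genes, among them Tfrc, against 3.17% of all genes. The share was 12.5% of the neural crest genes (Snai2 and Sema3a) and 5% of the cell cycle genes (E2f1). Both CBFB-MYH11 +Dox and neither Control +Dox CHD7 library called the site at Snai2, the opposite of its kind. No +Dox CHD7 library called that in Sema3a, and 1 of each construct called that at Tfrc. The site at E2f1 (chr2:154569425-154569872) scored 4.37 and 6.33 in Control -Dox, and no +Dox CHD7 library called it, while RUNX1 was called there in 3 CBFB-MYH11 and 3 Control libraries.

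The labelled cell type was read from marker genes. Of the progenitor genes read, Cd34, Runx1, Gata2, Lyl1, Meis1, Itga2b and Myb had a site in all 4 libraries, and Kit and Tal1 did not. Pax5, Ebf1 and Cd3e of the lymphoid and Apoa1, Ttr and Hnf4a of the liver markers had no site in any of the 4 libraries. Lck had 3 sites and Alb 1, none of them called in both libraries of a construct.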

How the data were processed

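The files are 16 ChIP-seq peak lists for the 17 labelled samples, 1 list per library. Bowtie2 2.0.6, MACS2 2.0.10 and mm10 are named in the submitters' processing notes; the background library, read filters and depth are not given in the sources used. Each peak's deposited score is a −log10 p-value, called at 0.01 for CHD7 and at 1e-09 or 1e-07 for RUNX1, as the peak names give it. Scores ranked or filtered peaks within a list.

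Peaks of chromosomes 1 to 19, X and Y entered the analysis. The members and the gene lists were chosen with earlier results of these data known. Tests used one value per library, in exact two-sided permutation tests with Benjamini-Hochberg adjustment over 5 tests: peak number, gene-end share, and the log2 odds ratios (0.5 added to each count) of CHD7 +Dox, all RUNX1 and RUNX1 -Dox libraries. The p-value threshold was 0.05. A window of 5 Mb was compared where the 2 constructs' mean peak numbers, per 10000 peaks outside chromosomes 14 and 19, summed to over 6, and 0.5 was added to both means in the log2 ratio. Genes came from RefSeq's GRCm38.p6 table (21883 protein-coding genes, with no exons, so gene features are not given), which matched all 227 list genes, and promoters from 32851 RefSeq windows.

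The sites named are up to 10 of each kind that were members both as deposited and at equal list length, by mean percentile rank of score, and up to 10 of each called in all 4 CHD7 libraries of one construct and none of the other. List genes are named in full up to 5 per list and direction, otherwise the 4 highest-ranked; a few genes are not reported here. Sites called in all 8 libraries of a construct and the printed promoters were chosen after their values were seen. Alternatives changed the overlap, score, list length, ties, sites and libraries. Merging, calls and tests were checked on simulated lists. Python 3.11.15, numpy 2.4.6 and pandas 2.3.3 were used.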

Additional observations from a re-analysis of the deposited data

How the results depend on the processing

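The site counts depend on how a call is made. With a score of at least 5 there were 665 CM-only and 188 control-only sites, and with a score at or above each list's median 1499 and 544. Of the 10000 best peaks per list, 787 sites were control-only, and of the 5000 best, 517 were CM-only and 398 control-only. Leaving out 1 library relaxes the rule, and gave 3552 to 20686 CM-only and 1365 to 5908 control-only sites (2503 to 6799 and 2046 to 6389 at equal length). The highest CM-only count, 20686, came without CBFB-MYH11 -Dox replicate 1. Requiring an overlap of 0.5 of the shorter interval or leaving out chromosomes 14 and 19 kept all 4 counts within 1.5 times, as did leaving out sites with a peak of the other construct within 1 kb for the counts as deposited; that was not run at equal length. The difference in log2 peak number ran from -0.158 without CBFB-MYH11 -Dox replicate 2, which turned its direction, to 0.945 without replicate 1.

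With the replicate number as a replicate block, replicate 1 alone gave 7564 CM-only and 7807 control-only sites (7779 and 7716 at equal length) and replicate 2 alone 22870 and 6709 (8323 and 8068). The RUNX1 difference in log2 odds ratio was 1.56 under the replicate block, with p = 0.125 over 16 choices of an exact permutation test. The numbers were not shown to pair the samples: deviations of the 2 numbers correlated at 0.177 over 7440 sites, with 2 pairs. With +Dox libraries alone the RUNX1 difference was 1.36 (exact permutation test, p = 0.333, the smallest 6 choices allow). Under its 17 other alternatives it was 1.19 to 1.81, each with p = 0.0286 in an exact permutation test. That p is the smallest these choices allow, so its repetition shows only that the groups did not overlap under each alternative. The CHD7 +Dox difference was 1.75 to 3.13 and the RUNX1 -Dox difference 1.47 to 1.91 over 13 alternatives each. Leaving out chromosomes 14 and 19, and sites with a near peak of the other construct, were chosen after seeing the data. Depth is unknown, so a site not called in a library may hold a peak under the threshold.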
